A study of Homo sapiens with 2 samples.

Results

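The sensors that detect double-stranded RNA in the cytosol and in endosomes, with their adaptors and partner enzymes, were examined in HSC-1 cells, a cell line from a cutaneous squamous cell carcinoma, after siRNA against the long noncoding RNA LINP1. The 10 genes were listed by function, with no measured value in the rule, but with earlier results of these data known. They were DDX58 (RIG-I), IFIH1 (MDA5), DHX58 (LGP2), MAVS, TLR3, TICAM1 (TRIF), EIF2AK2 (PKR), TBK1, ADAR and PRKRA (PACT). All 10 were found among the 44591 genes of the count table. HSC-1 cells received either the control siRNA, siNC, or siLINP1, and total RNA of each condition was sequenced as 1 library. By the sample labels, cells at about 70% confluency were transfected, kept without serum for 6 h and then grown in serum-containing medium for a further 24 h. The study's general methods give a higher confluency and a longer time from transfection to RNA extraction, and which holds for these libraries could not be settled. The control cells thus shared the transfection reagent and the change of medium with the siLINP1-treated cells. The labels name no genetic change in either group, and no replicate culture stands behind either value. Every interval below therefore covers counting error only, and no p-value was computed.

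RNA that carries a double strand is a sign of viral infection, and cells hold several proteins that bind it. RIG-I, MDA5 and LGP2 are related helicases of the cytosol. RIG-I binds short duplexes with a 5′ triphosphate, MDA5 assembles along long duplexes, and LGP2 lacks the signalling domain of the others and modulates them. RIG-I and MDA5 signal through MAVS on the mitochondrial membrane, while TLR3 reads double-stranded RNA in endosomes and signals through TRIF. Both adaptors lead to the kinase TBK1, which phosphorylates IRF3 and so turns on interferon genes. PKR halts translation by phosphorylating eIF2α when it binds double-stranded RNA, PACT activates it, and ADAR edits adenosine to inosine in duplexes, which keeps the cell's own RNA from being sensed. In many cell types several of these genes are themselves induced by interferon, among them DDX58, IFIH1, DHX58, TLR3, EIF2AK2 and the long form of ADAR.

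The LINP1 siRNAs define the treatment and are shown as the study lists them. There are 2 of them, and which was used for the sequenced cells is not stated. Each matches the plus strand of chromosome 10 of GRCh37 once and lies in an exon of all 4 annotated LINP1 transcripts. The first spans chr10:6780757-6780775 and the second chr10:6780487-6780505. The sequence of siNC is a supplier's catalogue item and was not used here.
siLINP1_01: ccaactgcgggacttcaga
siLINP1_02: cactctccagcctgcaaga

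The target, LINP1 (chr10:6779344-6780901, plus strand), had 167 reads in siNC and 23 in siLINP1, which is 0.159 of the control level after scaling (95% interval 0.0982 to 0.247). The siNC library held 18829544 counted reads and the siLINP1 library 15383081. Of 11 squamous keratinocyte markers, 7 were below 1 RPKM (reads per kilobase of gene length, scaled to the library's total) in both libraries, among them KRT5 with 32 and 24 reads, TP63 with 6 and 8 and CDH1 with 14 and 3. The other 4 were read at higher levels, with KRT14, the partner of KRT5, at 7.89 and 3.46 RPKM, KRT10 at 30.3 and 26.1, SFN at 10.7 and 6.82 and PERP at 14.3 and 21.1. Of the 11, KRT14 fell, with a log2 fold change of -1.27 (95% interval -1.64 to -0.91). Summed over the list, the squamous markers were at 65.3 RPKM in siNC and 59.4 RPKM in siLINP1. The 8 mesenchymal markers summed to 2070 and 1700 RPKM, with VIM at 1520 and 1280 RPKM. The 10 blood cell markers summed to 2.22 and 1.65 RPKM, and 5 of them, CD3E and CLEC4C included, had 0 reads in both libraries. The part of these markers in the results that follow was not tested.

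Across the 10 genes, the 3 cytosolic helicases rose and the adaptors, kinases and duplex-binding proteins downstream or beside them did not. The libraries were scaled to each other by size factors of the median-of-ratios kind, and a gene was called when its fold exceeded 1.5. A gene is said below to have risen or fallen only when its whole 95% interval lay beyond 1.5-fold. By the point value, 3 of the 10 were higher by more than 1.5-fold, against 14.4% of the 19840 genes with at least 10 reads, and 1 was lower, against 13%. With the whole interval above 1.5-fold there were also 3 of the 10, against 3.98% of all genes. None of the 10 had its whole interval beyond a 1.5-fold fall, where 2.06% of all genes lay. All 10 are also among the 13336 genes with at least 100 reads, of which 8.72% were higher by more than 1.5-fold. Because the 10 were chosen with earlier results known, these shares describe the list and do not test it. The median log2 fold change of the 10 genes was 0.17 and that of all genes -0.023. In a bulk library, more RNA per cell and more cells that hold the RNA cannot be told apart.

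**Figure D1:**
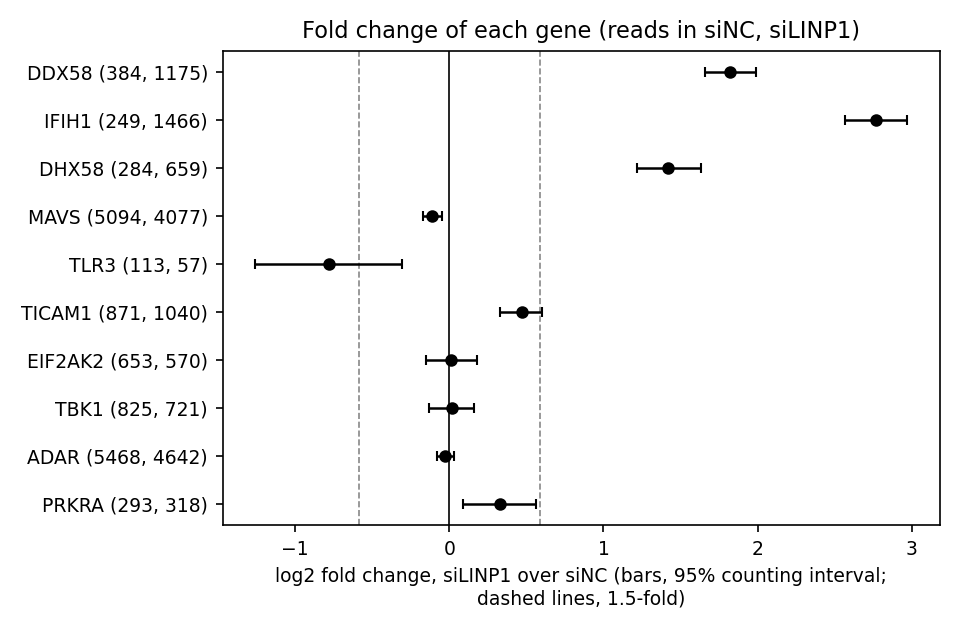
Log2 fold change of siLINP1 over siNC for each of the 10 genes, with 95% counting intervals as bars, 1.5-fold as dashed lines and the reads of the siNC and siLINP1 libraries beside each name. Only DDX58, IFIH1 and DHX58 have intervals wholly to the right of the 1.5-fold line, and the interval of TLR3 crosses the line on the left.

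The largest change of the 10 belonged to IFIH1, the gene of MDA5, at chr2:163123589-163175218 of GRCh37 (minus strand). The control library gave 249 reads of it and the siLINP1 library 1466. The log2 fold change of IFIH1 was thus 2.77 (95% interval 2.57 to 2.97), or 6.81-fold. DDX58, which encodes RIG-I and lies at chr9:32455300-32526322 (minus strand), had 384 and 1175 reads. Its rise was 3.54-fold, with a log2 fold change of 1.82 (95% interval 1.66 to 1.99). DHX58, the gene of LGP2, at chr17:40253422-40264751 (minus strand), had 284 and 659 reads. Among the helicases it rose least, 2.68-fold, with a log2 fold change of 1.42 (95% interval 1.22 to 1.63). Ordered by the lower end of the interval over all 19840 genes, IFIH1 stood at place 22, DDX58 at place 113 and DHX58 at place 213. No alternative scaling, read minimum or pseudocount moved these values far, with ranges of 2.74 to 2.85 for IFIH1, 1.81 to 1.91 for DDX58 and 1.41 to 1.51 for DHX58.

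The helicases did not rise by the same factor. The ratio of IFIH1 to DDX58 reads went from 0.648 in siNC to 1.25 in siLINP1, a 1.92-fold shift (conditional exact 95% interval 1.61 to 2.31). Against DHX58, IFIH1 gained 2.54-fold (95% interval 2.08 to 3.09) and DDX58 gained 1.32-fold (95% interval 1.10 to 1.59). Such ratios compare reads within a library and so do not depend on the scaling between libraries. On the scale of RPKM, DHX58 was the most abundant of the 3 in siNC at 5.76, followed by DDX58 at 4.29 and IFIH1 at 3.67. In siLINP1, IFIH1 came first at 26.5 RPKM, and DHX58 at 16.4 and DDX58 at 16.1 were not separable by their intervals. The summed level of the 3 went from 13.7 to 58.9 RPKM, and the share of IFIH1 in it from 26.8% to 44.9%, while that of DHX58 went from 42% to 27.8%.

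Promoter sequence of the members was compared as a planned description, and the part of any match in the changes was not tested. RefSeq windows of GRCh38.p14, reaching from 250 bases before to 50 bases after each gene's start, were found for 9 of the 10 members, the exception being DHX58. ADAR and PRKRA have 3 annotated starts each. The letters of the interferon-stimulated response element, GAAANNGAAA on either strand, occur in 3.57% of all 35116 windows and in those of IFIH1, TLR3 and EIF2AK2. IFIH1 holds 3 matches, of which 2 overlap each other from 159 to 144 bases before the start and the other lies from 21 to 12 bases before it. In EIF2AK2 and TLR3 the single match spans the start itself. Only IFIH1 of these 3 genes rose, while EIF2AK2 had a log2 fold change of 0.01 and TLR3 one of -0.78. The stretches below are read along each gene's own strand, end 10 bases past the start and have the matches in capitals. They span chr2:162318675-162318854 on the minus strand, chr2:37156971-37157060 on the minus strand and chr4:186069076-186069165 on the plus strand.
IFIH1: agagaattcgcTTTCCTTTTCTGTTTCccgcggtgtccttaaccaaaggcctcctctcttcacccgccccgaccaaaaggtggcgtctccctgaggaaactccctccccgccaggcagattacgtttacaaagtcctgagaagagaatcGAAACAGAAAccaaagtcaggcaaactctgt
EIF2AK2: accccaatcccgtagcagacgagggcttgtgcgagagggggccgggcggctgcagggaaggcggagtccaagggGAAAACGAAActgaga
TLR3: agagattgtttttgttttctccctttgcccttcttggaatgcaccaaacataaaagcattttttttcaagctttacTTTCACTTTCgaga

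The window of DDX58 has no match to these letters, which says nothing of sites elsewhere. It holds 1 match, from 76 to 67 bases before the start, to a loose NF-kB form searched as GGGNNNNNCC on either strand. This form is common, with 58.7% of all windows holding it, and 6 of the 9 members with a window do so. IFIH1 has 2 such matches, neither overlapping its interferon-response matches, 1 of them at the same distance from its start as that of DDX58. The stretch of DDX58 covers chr9:32526187-32526296 on the minus strand, with the match in capitals.
DDX58: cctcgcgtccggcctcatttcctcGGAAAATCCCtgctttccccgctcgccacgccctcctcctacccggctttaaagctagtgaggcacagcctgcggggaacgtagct

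**Figure D2:**
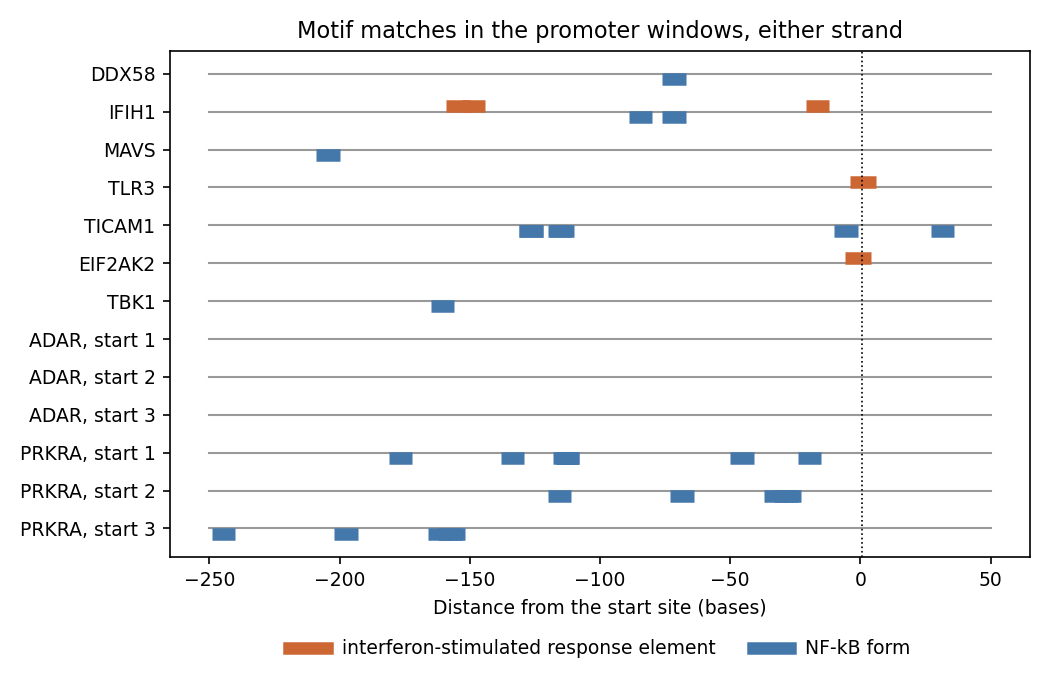
Matches to the interferon-stimulated response element (orange) and to the NF-kB form (blue), on either strand, against distance in bases from the start site (dotted line), with 1 row for each annotated start of the 9 members that have a window. IFIH1 has both kinds, the matches of TLR3 and EIF2AK2 lie at the start, and ADAR has none at any of its 3 starts.

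The adaptor beneath RIG-I and MDA5 did not follow them. MAVS, at chr20:3827446-3856770 (plus strand), was read 5094 times in the control library and 4077 times after siLINP1. This gave a log2 fold change of -0.11 (95% interval -0.17 to -0.05), which scaling by the total count brought to -0.03. Measured against MAVS within each library, the helicases gained 7.35-fold for IFIH1 (95% interval 6.38 to 8.50), 3.82-fold for DDX58 (3.38 to 4.33) and 2.90-fold for DHX58 (2.5 to 3.36). Per length, IFIH1 stood at 0.16 of the MAVS level in siNC and at 1.18 of it in siLINP1. Such levels rest on the gene lengths given, 11771 bases for MAVS and 3600 for IFIH1, whichever transcripts the cells held. DDX58 went from 0.187 to 0.713 of MAVS and DHX58 from 0.251 to 0.727.

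On the endosomal side, the receptor stood lower after siLINP1. TLR3, at chr4:186990309-187006252 (plus strand), was the least read of the 10 genes, with 113 in the control library and 57 after siLINP1. Its log2 fold change of -0.78 passed 1.5-fold at the point value, but the 95% interval of -1.26 to -0.31 reached inside it. The level was 1.97 RPKM (95% interval 1.63 to 2.37) in siNC and 1.22 RPKM (0.923 to 1.58) in siLINP1. TICAM1, which encodes the TLR3 adaptor TRIF at chr19:4815936-4831754 (minus strand), had 871 and 1040 reads. Its log2 fold change was 0.47 (95% interval 0.33 to 0.60), below the 1.5-fold mark at the point value. The ratio of TLR3 to TICAM1 reads was 0.13 in siNC and 0.0548 in siLINP1, so the receptor lost ground to its adaptor to 0.423 of the control ratio (95% interval 0.298 to 0.594).

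Among the enzymes, TBK1 and EIF2AK2 were level between the libraries within counting error. TBK1, at chr12:64845840-64895899 (plus strand), had 825 and 721 reads and a log2 fold change of 0.02 (95% interval -0.13 to 0.16). EIF2AK2, the gene of PKR, at chr2:37332281-37384190 (minus strand), had 653 and 570 reads and a log2 fold change of 0.01 (95% interval -0.15 to 0.18). These intervals leave room for a change of at most 1.12-fold upward for TBK1 and 1.13-fold for EIF2AK2, as far as counting goes. PRKRA, whose product PACT activates PKR, had 293 and 318 reads and a log2 fold change of 0.33 (95% interval 0.09 to 0.56). The ratio of EIF2AK2 to PRKRA reads was 2.23 in siNC and 1.79 in siLINP1, or 0.804 of the control ratio (95% interval 0.659 to 0.982). PRKRA lies at chr2:179296141-179315967 (minus strand), where 2 genes of the plus strand overlap it. LOC101927027 had 106 and 116 reads and ENSG00000223960.2 had 30 and 39, and without a stated strand setting reads of the 3 genes cannot be told apart. The other 9 members overlap no gene of the table.

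ADAR, at chr1:154554533-154600456 (minus strand), was the deepest read of the group with 5468 and 4642 reads. Its log2 fold change was -0.03 (95% interval -0.08 to 0.03), and 0.06 when scaled by the total count, so its sign rests on the scaling. The count table gives ADAR as 1 gene, so its long and short forms are summed here. Reads of ADAR over those of EIF2AK2, the other duplex-binding enzyme, were at 0.973 of the control ratio (95% interval 0.862 to 1.10). The other kinases that phosphorylate eIF2α were EIF2AK1 with a log2 fold change of -0.10, EIF2AK4 with -0.18 and EIF2AK3, the gene of PERK, with 0.48, none of them past 1.5-fold.

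The order of the levels differed between the libraries for the helicases and for the adaptors. In siNC, ADAR led with 40.9 RPKM, followed by MAVS with 23, TICAM1 with 17 and TBK1 with 14.2, each apart from the next by its exact Poisson interval. EIF2AK2 at 7.98, PRKRA at 6.79 and DHX58 at 5.76 came next, where EIF2AK2 overlapped PRKRA and PRKRA overlapped DHX58. DDX58 at 4.29 and IFIH1 at 3.67 were not separable, and TLR3 was lowest at 1.97 RPKM. In siLINP1, ADAR led again at 42.5 RPKM and TLR3 was again lowest at 1.22. IFIH1 moved from place 9 to place 2, where its interval overlapped that of TICAM1 at 24.8 RPKM. MAVS followed at 22.5 RPKM, so the adaptors had exchanged places, with their intervals apart in both libraries. DHX58, DDX58 and TBK1, at 16.4, 16.1 and 15.2 RPKM, formed a run in which each overlapped the next, as PRKRA at 9.02 did EIF2AK2 at 8.52.

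The pathway around these genes was read from 8 lists that hold 116 further genes, of which 106 had at least 10 reads. Of the 106, 12 were higher by more than 1.5-fold (11.3%, against 14.4% of all genes) and 6 were lower (5.66%, against 13%), with a median log2 fold change of 0.01. The whole interval lay above 1.5-fold for 10 of the 106, where 3.98% of all genes lay, and beyond a 1.5-fold fall for 2, where 2.06% lay. At the minimum of 10 reads, the share of calls among the pathway genes was therefore below the background by the point value. By the whole interval it was above the background for rises. The whole-interval call needs more reads, and the lists were not matched to the other genes for depth. A minimum of 100 reads left out only CD14, TLR9 and SOCS1 of the 106. There, 12 pathway genes were still higher, at least the 11.3% above, against 8.72% of all genes, and 4 were lower, against 6.77%. By the point value, the pathway share then lay above the background for rises and still below it for falls. The separate lists are set against all genes with at least 10 reads, so the same limit holds for them.

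Of 11 cofactors of the helicases, 3 were higher by more than 1.5-fold, all with the whole interval (against 14.4% and 3.98% of all genes), none was lower (against 13%), and the median was 0.15. ZC3HAV1, whose short form ZAPS promotes RIG-I signalling, rose from 1687 reads to 6171 (log2 fold change 2.08, 95% interval 2 to 2.16). DDX60, a helicase that aids RIG-I, rose from 338 reads to 1068 (log2 fold change 1.87, 95% interval 1.69 to 2.05). ZCCHC3, which binds RNA together with RIG-I and MDA5, had 675 and 1051 reads and a log2 fold change of 0.85 (0.71 to 0.99). TRIM25 and RNF135, the ubiquitin ligases that act on RIG-I, had log2 fold changes of 0.02 and -0.02. The lowest of the list was PPP1CA, a subunit of the phosphatase that activates RIG-I and MDA5, at -0.35.

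Of 14 restrainers of the helicases or MAVS, 1 was higher and 1 lower by more than 1.5-fold, against 14.4% and 13% of all genes, and the median was -0.04. CYLD, a deubiquitinase that acts on RIG-I, rose from 536 reads to 1370 (log2 fold change 1.56, 95% interval 1.42 to 1.71). RNF125, a ligase that marks RIG-I for degradation, had 449 and 223 reads and a log2 fold change of -0.80 (-1.04 to -0.57). The ligases MARCH5 and ITCH, which act on MAVS, stood at 0.49 and 0.34.

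In the relay from the adaptors to IRF3 and NF-kB, 1 of 20 genes was higher by more than 1.5-fold (against 14.4% of all genes) and none was lower (against 13%), with a median of -0.01. The 1 gene was TRAF3, an adaptor that joins MAVS and TRIF to TBK1, which rose from 656 reads to 1055 (log2 fold change 0.89, 95% interval 0.75 to 1.04). TRAF6 and TRAF2 stood at 0.49 and 0.38. The kinase IKBKB was the lowest at -0.32, and IRF3, the factor that TBK1 phosphorylates, had a log2 fold change of -0.19.

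Genes of the endosomal receptors and their MYD88 route had a median of -0.26 over the 12 of 16 that were kept, 3 of them lower and 1 higher by more than 1.5-fold, against 13% and 14.4% of all genes. UNC93B1, which carries TLR3 and its relatives from the endoplasmic reticulum to endosomes, fell from 735 reads to 356 (log2 fold change -0.84, 95% interval -1.02 to -0.65). The other 2 were the receptor TLR9 with 28 and 14 reads and CD14, a co-receptor, with 12 and 3, counts so low that their intervals held 0. TLR3 had the same direction as UNC93B1, at -0.78. IRAK2, a kinase of the MYD88 route, rose from 214 reads to 349 (log2 fold change 0.92, 95% interval 0.67 to 1.17), while IRAK1 was at 0.01. The receptors of single-stranded RNA were hardly read, with 1 and 0 reads for TLR7 and 0 reads in both libraries for TLR8, where a count of 0, taken to allow up to 3 reads, leaves room for 0.0366 RPKM in siNC and 0.0448 RPKM in siLINP1.

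Other proteins that bind duplex RNA or act beside PKR had a median of 0.07, with 3 of the 21 kept higher by more than 1.5-fold, a share like the 14.4% of all genes, and none lower, against 13%. PPP1R15A, the phosphatase subunit GADD34 that reverses the mark PKR sets on eIF2α, rose from 6028 reads to 18205 (log2 fold change 1.80, 95% interval 1.76 to 1.85). Its constitutive relative PPP1R15B had 2771 and 3683 reads and a log2 fold change of 0.62 (0.55 to 0.69). ADARB2, a relative of ADAR without known editing activity, rose from 23 reads to 79, at a log2 fold change of 1.99 with a wide interval of 1.30 to 2.73. TARBP2, the relative of PACT that works with Dicer and inhibits PKR, was the lowest at -0.49.

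Genes of the interferon receptors and of the factor ISGF3, which interferon uses to induce several of the 10 genes, were 13 in number. Higher by more than 1.5-fold were 2 of them, a share near the 14.4% of all genes, none was lower, against 13%, and the median was 0.07. ISG15, an ubiquitin-like protein that restrains viruses, rose from 533 reads to 2089 (log2 fold change 2.18, 95% interval 2.04 to 2.32). USP18, the protease that removes it, had 165 and 258 reads and a log2 fold change of 0.85 (0.57 to 1.15). STAT2 and IRF9, which carry the interferon signal to the nucleus, had log2 fold changes of 0.17 and -0.13, and SOCS3, a brake on the receptors, was the lowest at -0.49. Genes that interferon is known to induce were thus divided, with the 3 helicases, DDX60 and ISG15 higher and EIF2AK2, ADAR, STAT2 and IRF9 within 1.5-fold.

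**Figure D3:**
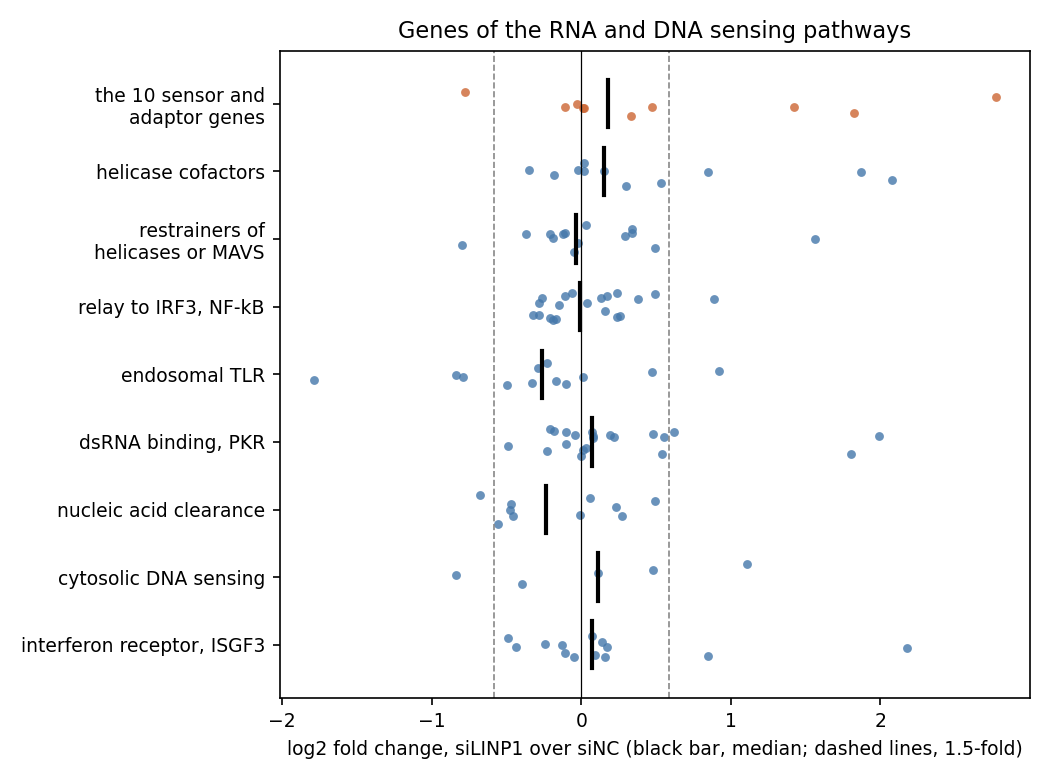
Log2 fold change of siLINP1 over siNC for the 10 RNA sensor and adaptor genes (orange) and for the kept genes of 8 pathway lists (blue), with the median of each list as a black bar and 1.5-fold as dashed lines. Most medians lie near 0. Of the pathway genes, 12 lie beyond the right dashed line and 6 beyond the left, where TLR3 also lies. IFIH1 lies farthest to the right.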

How the data were processed

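Total RNA of HSC-1 cells was sequenced on an Illumina instrument, with 1 library for siNC and 1 for siLINP1. Per the study's methods, the authors used Tophat2 for alignment to GRCh37/hg19 and HTSeq for counting, and the submitters' processing notes also name HISAT2, Bowtie2 and HISAT. Versions, annotation, counting mode and strand setting are not given in the sources used here. The deposited values are raw read counts per gene. The RPKM values deposited by the authors equal those recomputed from count, gene length and library total. A further 12 per-sample columns of the table were left out.

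Scaling used size factors of the median-of-ratios kind (1.08 for siNC, 0.93 for siLINP1), and genes with at least 10 reads over both libraries were kept. Intervals at 95% are Clopper-Pearson intervals of the split of reads turned into folds, exact Poisson intervals for levels and conditional exact intervals for ratios. They cover counting error only, and no error in the gene lengths that levels between genes rest on. Reads were counted without molecular identifiers, so PCR copies are not told apart. The 5 ratios of a sensor to an adaptor or partner were planned, and 4 further ratios were added after the values were seen. The scripts were tested on simulated data.

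The members and gene lists were chosen with earlier results of these data known. Named genes were the members and, per list, the 3 largest rises and the largest fall by the nearer end of the interval, plus direct partners of a member. DAK and TOMM70A were matched through RefSeq synonyms. The planned comparison of protein sequences was not run. Alternatives were total-count and edgeR TMM scaling, minimums of 1 and 100 reads, protein-coding genes only, and pseudocounts of 1 and 5. Software was R 4.3.3 with edgeR 4.0.16, and Python 3.11.15 with scipy 1.17.1, pandas 2.3.3, numpy 2.4.6 and matplotlib 3.10.9.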

Additional observations from a re-analysis of the deposited data

How the results depend on the processing

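The counts of members called, at 3 higher and 1 lower, held under every alternative, and so did the 3 with the whole interval above 1.5-fold wherever an interval was computed. Total-count scaling moved MAVS to a log2 fold change of -0.03 and ADAR to 0.06, outside their narrow intervals. The counts over all genes depended on the read minimum, with 7048 higher and 6456 lower by more than 1.5-fold at 1 read and 1163 and 903 at 100 reads, and 1673 and 1346 among protein-coding genes. The pathway lists hold 116 genes, of which TLR8, ADAD1 and MNDA had no read. With 1 read as the minimum, 14 pathway genes were higher and 11 lower, shares below the 23.9% and 21.9% of all genes. When the promoter windows were limited to bases upstream of the start, 1 of the 9 members with a window kept an interferon-stimulated response element match. Of all windows, 3.02% held such a match. Of 305 values recomputed, 289 stayed within their interval or within 1.5 times the count and 0 changed the sign of a called value. No paired analysis was possible because each condition has 1 library, and no library could be left out. At the depth of TLR3, counting error alone spans 0.417 to 0.809 of the control level.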

Other observations

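Genes that sense DNA in the cytosol, a route that meets the RNA route at TBK1, were read for contrast. Of 9 such genes, 5 had at least 10 reads, with 1 higher and 1 lower by more than 1.5-fold, against 14.4% and 13% of all genes. TMEM173, which encodes STING and binds TBK1 as MAVS does, fell from 1213 reads to 588 (log2 fold change -0.84, 95% interval -0.98 to -0.69). AIM2, a DNA sensor that drives the inflammasome, rose from 68 reads to 127 (log2 fold change 1.11, 95% interval 0.67 to 1.56), and IFI16 had 2190 and 2648 reads, at 0.48. MB21D1, the gene of cGAS that makes the ligand of STING, had 1 and 2 reads, and ZBP1 had 1 and 3.

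Genes that clear the cell's own RNA and DNA, whose loss is known to set off these sensors, gave -0.23 as the median of their log2 fold changes. Of 10, none was higher and 1 was lower by more than 1.5-fold, against 14.4% and 13% of all genes, so the share lower was near that of genes at large. That gene was RNASEH2C, a subunit of the nuclease that removes RNA paired with DNA, with 2088 and 1131 reads and a log2 fold change of -0.68 (-0.78 to -0.57). XRN1, an exonuclease that degrades mRNA, had 827 and 1007 reads and a log2 fold change of 0.49 (0.36 to 0.63).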
